A study of Mus musculus with 12 samples.

Results

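The 48 genes described here are the Hox, T-box, Meis and Pbx transcription factors in a table of 16670 mouse genes measured by RNA sequencing. The rule that takes them uses symbols and no measured value, although these families were picked with earlier results of these data known. It takes every gene named Hoxa, Hoxb, Hoxc or Hoxd with a number and every Tbx, Meis or Pbx gene with a number. The rule found 10 Hoxa, 8 Hoxb, 7 Hoxc, 6 Hoxd, 10 Tbx, 3 Meis and 4 Pbx genes. The 31 Hox genes stand beside 39 in the GENCODE annotation of the mouse genome, and the other 8 were not analysed here. The libraries came from inguinal white fat, a depot under the skin of the groin and flank, of female C57BL/6 mice. The tissue was digested with collagenase, and a spin parted the floating mature adipocytes from the pelleted stromal vascular cells, which include fibroblast-like progenitors and cells of vessels, nerves and the immune system. The 4 groups were mature adipocytes labelled Kdm5c+/–, mature adipocytes labelled Kdm5c+/+ (wild type), stromal vascular cells labelled Kdm5c+/– and stromal vascular cells labelled Kdm5c+/+, with 3 libraries each. Kdm5c is an X-linked gene for a demethylase of histone H3 lysine 4, and Kdm5c+/– females carry 1 altered copy. Not given in the sources used here were the part of the gene that is altered, the cells in which it is altered, and the age and diet of the mice. Every library is a pool of 2 mice, so the spread between libraries is a spread between pools. The comparisons ask how the fractions differ, how the genotype labels differ within each fraction, and whether that genotype difference is unlike in the fractions.

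Hox genes lie in 4 clusters and are switched on along the body axis in the order in which they sit on the chromosome, so that the set a cell keeps records where in the body it formed. Genes with the same number in different clusters, called paralogs, arose by duplication and bind much the same DNA. Pbx and Meis proteins, of the TALE class of homeodomain proteins, bind DNA together with Hox proteins and sharpen their choice of site. T-box proteins bind a different DNA element and pattern the limbs, heart and body wall. Fat depots keep different sets of Hox and T-box genes, and Hoxc genes and Tbx15 are among those known to mark fat under the skin.

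The start sites of 6 members are shown because their genes moved in opposite directions between the fractions, or fell there and hold a searched motif. Hoxa2, Hoxa3, Tbx6 and Tbx21 also were lower in limma and hold a searched motif, but are not printed. The sequences are RefSeq promoter windows of GRCm38.p6, from 250 bases before to 50 bases after an annotated start. Of the 48 genes, 28 matched the table, with 30 windows. Other members, among them Hoxa4, Hoxb2, Hoxb3, Hoxb5, Hoxb6, Hoxb7, Hoxb9, Hoxc5, Hoxc6, Hoxc8, Hoxc9, Hoxc10, Hoxc11, Pbx3, Tbx2, Tbx3, Tbx5 and Tbx15, are named only. Both strands were searched for TGATNNAT (a site for a Hox protein with Pbx), TGACAG (Meis) and GGTGTGA (a T-box half-site), and no printed window holds overlapping matches. Capitals mark matches, and each sequence reads 5′ to 3′ along its gene. Hoxa9 and Hoxa10 (chr6:52227321-52227620 and chr6:52240805-52241104, minus strand) were higher in mature adipocytes, and the Hoxa9 start used by RefSeq lies inside the GENCODE gene. Their paralogs Hoxd9 and Hoxd10 (chr2:74697513-74697812 and chr2:74691641-74691940, plus strand) were lower there. Hoxb8 (chr11:96281655-96281954, plus strand) and Tbx18 (chr9:87731211-87731510, minus strand) were also lower there.
Hoxa9: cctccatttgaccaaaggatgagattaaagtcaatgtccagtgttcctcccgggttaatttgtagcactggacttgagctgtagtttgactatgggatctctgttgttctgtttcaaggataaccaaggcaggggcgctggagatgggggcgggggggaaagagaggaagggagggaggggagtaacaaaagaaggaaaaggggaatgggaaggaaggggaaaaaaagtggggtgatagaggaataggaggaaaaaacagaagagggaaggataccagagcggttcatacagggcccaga
Hoxd9: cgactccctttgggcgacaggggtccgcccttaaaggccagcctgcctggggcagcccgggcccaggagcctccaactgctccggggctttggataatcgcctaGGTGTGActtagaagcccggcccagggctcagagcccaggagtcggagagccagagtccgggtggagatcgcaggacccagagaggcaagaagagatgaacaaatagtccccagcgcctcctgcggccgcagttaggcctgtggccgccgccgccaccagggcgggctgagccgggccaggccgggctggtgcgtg
Hoxa10: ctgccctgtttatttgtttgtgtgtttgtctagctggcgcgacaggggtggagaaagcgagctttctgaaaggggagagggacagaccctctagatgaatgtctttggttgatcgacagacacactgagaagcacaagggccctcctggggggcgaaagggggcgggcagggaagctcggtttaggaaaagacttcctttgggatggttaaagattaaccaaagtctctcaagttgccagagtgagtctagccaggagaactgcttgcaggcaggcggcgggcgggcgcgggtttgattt
Hoxd10: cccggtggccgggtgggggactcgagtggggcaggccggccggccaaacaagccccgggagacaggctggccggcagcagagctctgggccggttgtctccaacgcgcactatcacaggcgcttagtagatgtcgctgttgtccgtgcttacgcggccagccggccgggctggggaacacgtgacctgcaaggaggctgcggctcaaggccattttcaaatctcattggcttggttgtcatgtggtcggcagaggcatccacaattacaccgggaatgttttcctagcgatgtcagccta
Hoxb8: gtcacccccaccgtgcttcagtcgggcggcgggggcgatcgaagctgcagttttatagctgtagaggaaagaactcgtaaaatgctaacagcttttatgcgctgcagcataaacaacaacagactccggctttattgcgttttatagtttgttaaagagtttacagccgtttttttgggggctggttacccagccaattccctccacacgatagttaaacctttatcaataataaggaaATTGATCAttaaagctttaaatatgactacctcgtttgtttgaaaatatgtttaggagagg
Tbx18: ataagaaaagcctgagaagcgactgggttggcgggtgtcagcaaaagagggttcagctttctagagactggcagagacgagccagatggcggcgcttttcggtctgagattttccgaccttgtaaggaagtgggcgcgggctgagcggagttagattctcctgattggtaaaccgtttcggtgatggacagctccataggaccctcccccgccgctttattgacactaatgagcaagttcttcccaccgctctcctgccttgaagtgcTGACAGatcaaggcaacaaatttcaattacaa
The Hoxd9 window holds 1 T-box half-site, the Hoxb8 window 1 Hox-Pbx site and the Tbx18 window 1 Meis site, while the Hoxa9, Hoxa10 and Hoxd10 windows hold no match. Over all members, 4 of 30 windows held TGATNNAT (13.3%, against 8.85% of 32851 mouse windows). TGACAG was in 4 (13.3%, against 19.2%) and GGTGTGA in 1 (3.33%, against 3.98%). Such a match is a run of letters, not a bound site. The members' windows were rich in CpG pairs, with a median of 15 per window, against 7 over all windows. The printed Hoxa9 and Hoxa10 windows hold 4 and 12 CpG pairs, and the Hoxd9 and Hoxd10 windows hold 20 and 22. The other Hoxa10 window, which is not printed, holds 21, so Hoxa10 does not differ from Hoxd9 and Hoxd10 at each of its starts. Nor are all Hoxd windows rich in CpG pairs. Of those not printed, Hoxd4 and Hoxd8 hold 4 and 6, and Hoxd3 and Hoxd1 hold 20 and 29.

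Levels are CPM, counts scaled so that a library sums to 1000000 over the genes listed. A library held 21836878 to 29434125 reads, and 3 reads came to 0.102 to 0.137 CPM. The fractions matched their labels: 15 of 15 mature adipocyte markers were higher in mature adipocytes, summing to 45151 to 63323 CPM there and to 4799.9 to 8796 CPM in the stromal vascular fraction. Stromal cell markers were low but present in mature adipocytes: the median marker stood there at 1.52% of its stromal vascular level for progenitor genes, 3.12% for endothelial, 3.19% for pericyte and smooth muscle, 1.89% for macrophage, 1.33% for lymphocyte and 0.914% for mammary epithelium genes. The 8 Schwann cell markers stood higher, at a median of 18.9% and a range of 2.05% to 76.0%, and single genes of the progenitor, pericyte and mammary lists stood above 100%. Kdm5c itself did not separate the genotype labels. It was at 158, 190.3 and 158 CPM in mature adipocytes labelled Kdm5c+/–, against 179, 174 and 180.0 CPM in wild type, and at 194, 190.4 and 175 CPM in stromal vascular cells labelled Kdm5c+/–, against 188, 185 and 180.1 CPM in wild type. Directions between genotypes therefore follow labels that this level does not check, since reads from outside an altered part would still count.

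Between the fractions, the members did not move as a group. 5 genes of the Hoxc cluster, together with Hoxa9 and Hoxa10, were the members that were higher in mature adipocytes with no overlap of libraries, while all tested Hoxb and Hoxd genes and 7 of 8 T-box genes were lower there. Of 48 members, 42 reached 1 CPM in at least 3 of the 12 libraries and were tested with limma on log2(CPM + 1). Of these, 9 were higher in mature adipocytes (21.4%, against 28.7% of 14193 genes) and 29 were lower (69.0%, against 59.1%). The libraries of the fractions did not overlap for 7 higher members (23.2% of all genes) and 24 lower members (51.4%). The median log2 difference was -0.78 over the tested members and -0.45 over all genes. Of the 42, Hoxb9, Hoxd10, Tbx5, Tbx18 and Tbx21 passed the filter only through their stromal vascular libraries. Among the 37 members at 1 CPM in at least 3 libraries of each fraction, 9 were higher (32.1% of 11526 genes) and 24 lower (53.3%). The shares called in each direction did not stand far from those of all genes, and the results that follow are those of single genes and clusters. The balance moved with the scaling, because the median of all genes rises by a log2 of 0.44 with TMM scaling and 0.36 with median-of-ratios scaling. On the recovered reads edgeR called 12 members higher (42.7% of all genes) and 22 lower (43.4%), and DESeq2 called 12 higher (40.6%) and 23 lower (46%). The 9 higher members and 22 of the 29 lower ones were called in the same direction in limma under the 3 scalings, in edgeR and in DESeq2. In bulk RNA, fewer cells of a type and less RNA per cell cannot be told apart.

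**Figure D1:**
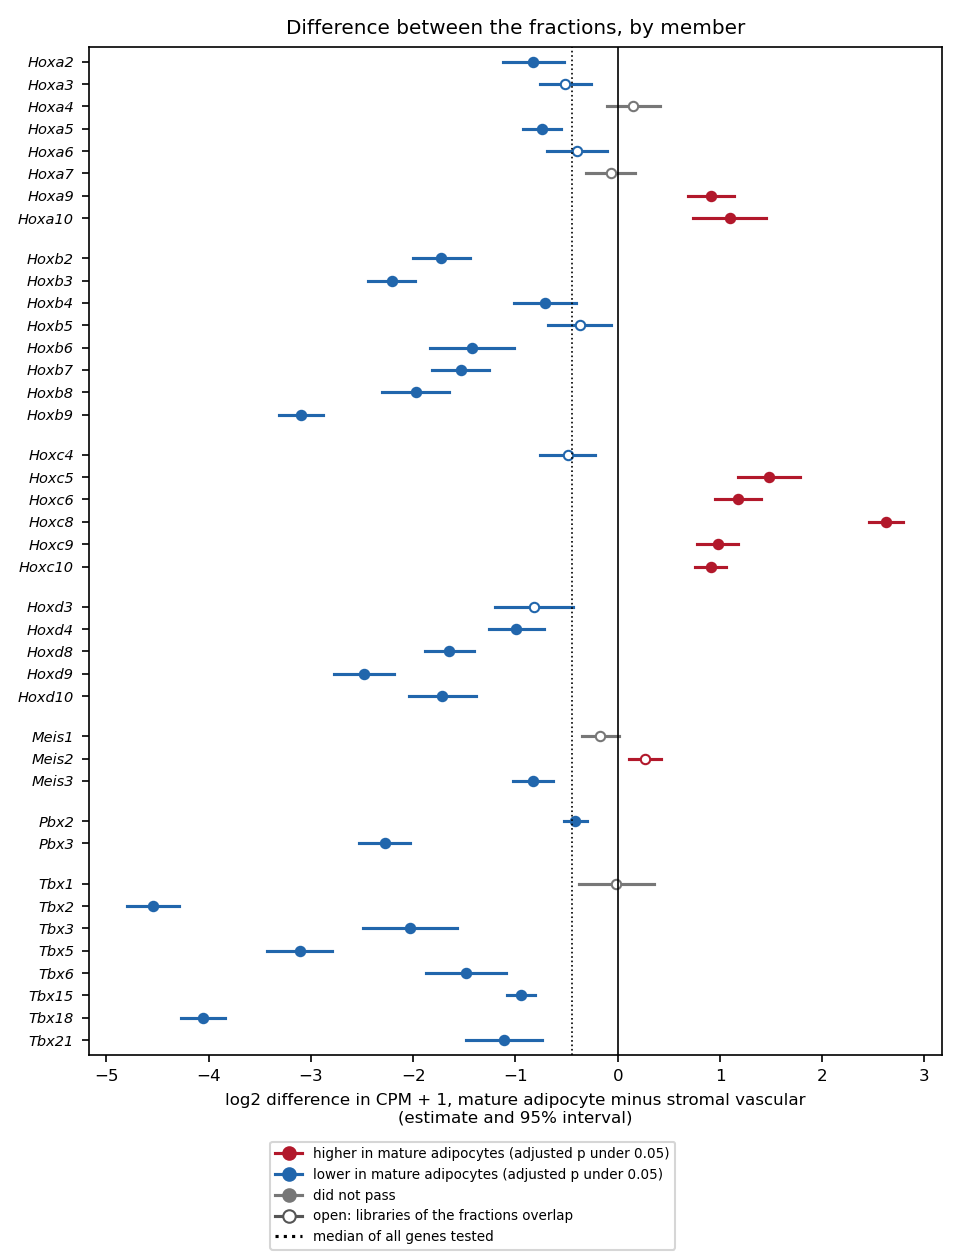
Log2 difference in CPM + 1 (mature adipocyte minus stromal vascular, x axis) for 40 of the 42 tested members, with the limma estimate as a point and its 95% interval as a line. Hoxc5 to Hoxc10 and Hoxa9 and Hoxa10 lie to the right of 0, Hoxb, Hoxd and most T-box genes to the left, and the dotted line is the median of all genes at -0.45.

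The Hoxc cluster, whose listed genes span chromosome 15 at 102954427 to 103036852 on the plus strand (GRCm38, GENCODE positions throughout), held the most abundant members in mature adipocytes. Hoxc8, which patterns the lower neck and thorax and is known as a repressor of brown fat genes, was at 109, 97.7 and 126 CPM in mature adipocytes labelled Kdm5c+/– and 132, 121 and 110.2 CPM in wild type. Stromal vascular libraries held 18.7, 19.5 and 16.3 CPM where labelled Kdm5c+/– and 19.1, 16.5 and 17.4 CPM in wild type. Every mature adipocyte library lay far above every stromal vascular library, and each pool showed it, at 502% to 770.3% of the stromal vascular level. The log2 difference was 2.62 ± 0.08 (adjusted p = 2.23e-11). Hoxc5, a gene of the neck and upper thorax, followed with 13.0 to 27.5 CPM (median 24.9) in mature adipocytes, against 6.10 to 8.23 CPM (median 7.03) in stromal vascular cells (1.48 ± 0.14). Hoxc6, which marks the upper thorax and forelimb level, had 35.8 to 55.6 CPM (median 50.2) in mature adipocytes and 17.7 to 22.7 CPM (median 21.8) in stromal vascular cells (1.18 ± 0.10). For both, the fractions did not overlap.

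Hoxc9, often used as a marker of white fat, averaged 21.8 ± 2.77 CPM in mature adipocytes and 10.5 ± 1.04 CPM in stromal vascular cells (n = 6 each, log2 difference 0.98 ± 0.09). Hoxc10, known in mice to hold back the browning of fat under the skin, averaged 40.0 ± 2.88 CPM in mature adipocytes and 20.9 ± 1.70 CPM in stromal vascular cells (0.91 ± 0.07). Neither overlapped between the fractions. The 2 ends of the cluster differed. Hoxc4, at the end read last along the chromosome, averaged 6.31 ± 1.56 CPM in mature adipocytes and 9.14 ± 1.56 CPM in stromal vascular cells, with overlapping libraries and a log2 difference of -0.49 ± 0.12 that passed in limma but not with another scaling, edgeR or DESeq2. Hoxc11, at the other end, had 0 reads in the 6 mature adipocyte libraries and 44 in the 6 stromal vascular libraries, at least 15.8-fold lower against a floor of 3 reads over the fraction. It was too low to be tested. Hoxc5 and Hoxc10 share 5.37% and 8.70% of their exon bases on the same strand, so a small part of their reads could belong to either.

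Levels of different genes are compared per kilobase of exon. On this scale Hoxc8 stood first of the 48 members in mature adipocytes, at 41.0 ± 4.39 CPM per kilobase, and 15th in stromal vascular cells, at 6.33 ± 0.478. Next in mature adipocytes came Hoxc10 (20.96 ± 1.51) and Hoxc6 (20.3 ± 2.96), which did not differ beyond their spread, then Pbx2 (12.2 ± 1.05) and Hoxc9 (8.97 ± 1.14). The tie depends on the length used: with the longest transcript, Hoxc6 came to 30.9 and Hoxc10 to 20.96. In stromal vascular cells the order began with Tbx2 (17.2 ± 3.72), Pbx2 (16.3 ± 1.04), Hoxd8 (13.5 ± 2.04) and Tbx3 (13.3 ± 4.66), whose spreads overlap.

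**Figure D2:**
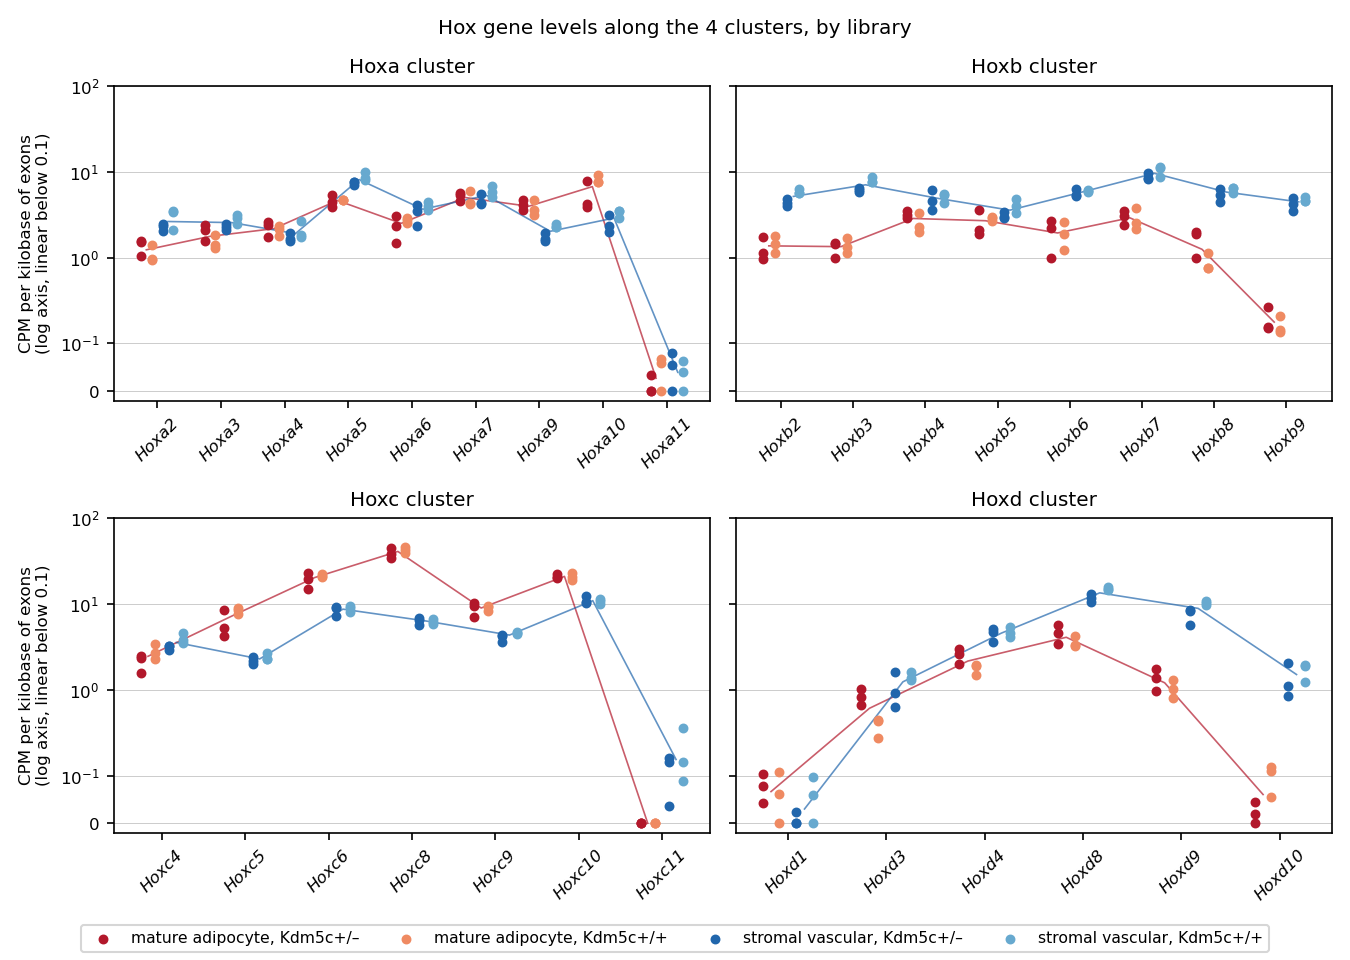
CPM per kilobase of exon (y axis, log scale, linear below 0.1) for 30 of the 31 Hox genes in order along each cluster, with 1 point per library and lines through the fraction means. Hoxc5 to Hoxc10 and Hoxa9 and Hoxa10 are higher in mature adipocytes, and the gap in the Hoxb and Hoxd clusters is widest at Hoxb9 and Hoxd10.

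In the Hoxa cluster, on the minus strand of chromosome 6, Hoxa9 and Hoxa10 were higher in mature adipocytes and Hoxa2 and Hoxa5 lower, without overlap. The other tested genes given here overlapped, and their estimates did not follow the order of the numbers. Hoxa9, which patterns the trunk and is needed by blood stem cells, was at 19.9, 26.1 and 22.7 CPM in mature adipocytes labelled Kdm5c+/– and 26.2, 17.5 and 20.3 CPM in wild type. Its stromal vascular level was 8.65, 10.9 and 9.21 CPM under the Kdm5c+/– label and 13.7, 12.7 and 12.7 CPM in wild type, below every mature adipocyte library (log2 difference 0.91 ± 0.10, adjusted p = 3.55e-06). Hoxa10, a gene of the lumbar region and the uterus, rose by 1.10 ± 0.16 (adjusted p = 4.69e-05). Its lowest mature adipocyte library held 12.9 CPM and its highest stromal vascular library 11.5 CPM.

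Hoxa2 and Hoxa5 were lower in mature adipocytes with no overlap. Hoxa2, which sets the identity of the second branchial arch, averaged 2.19 ± 0.515 CPM in mature adipocytes and 4.68 ± 1.14 CPM in stromal vascular cells (log2 difference -0.82 ± 0.13). Hoxa5, a gene of the neck, lung and mammary gland, averaged 8.70 ± 0.954 CPM in mature adipocytes and 15.2 ± 1.94 CPM in stromal vascular cells (-0.74 ± 0.08). Hoxa3 (-0.51 ± 0.11) and Hoxa6 (-0.40 ± 0.13) overlapped and passed in limma but not with TMM or median-of-ratios scaling, edgeR or DESeq2. Hoxa4 (0.15 ± 0.12) and Hoxa7 (-0.07 ± 0.11) did not pass. With TMM or median-of-ratios scaling, edgeR and DESeq2, both are called higher, so that Hoxa7 turns sign. Hoxa11 had 10 reads in the mature adipocyte libraries and 13 in the stromal vascular libraries and was not tested.

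All 8 Hoxb genes, at 96271457 to 96354012 on the plus strand of chromosome 11, were lower in mature adipocytes (59.1% of all genes). For 7 of them the fractions did not overlap (51.4% of all genes). Hoxb9, a gene of the rib cage that also acts in the mammary gland, was at 0.404, 0.680 and 0.392 CPM in mature adipocytes labelled Kdm5c+/– and 0.372, 0.544 and 0.348 CPM in wild type. The stromal vascular libraries read 12.8, 10.7 and 9.08 CPM (Kdm5c+/–) and 11.6, 13.0 and 11.7 CPM (wild type). The mature adipocyte level was 3.97% of the stromal vascular level, a little above the median of the endothelial and pericyte markers there, and the part of stromal cells carried over was not tested. The log2 difference was -3.10 ± 0.10 (adjusted p = 4.62e-11), and -4.16 in edgeR, which does not add 1 CPM.

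Hoxb8, which patterns the spinal cord and is expressed in blood progenitors, had 1.97 to 5.17 CPM (median 2.80) in mature adipocytes, against 11.7 to 17.3 CPM (median 15.7) in stromal vascular cells (-1.98 ± 0.15). Hoxb3, a gene of the hindbrain and neck, differed by -2.21 ± 0.11, with 4.19 to 7.19 CPM (median 5.90) in mature adipocytes, against 24.5 to 37.0 CPM (median 29.9) in stromal vascular cells. These genes kept 21.6% and 19.0% of their stromal vascular level, near the Schwann cell median and above those of the other stromal lists given. Hoxb7 (-1.53 ± 0.13), Hoxb2 (-1.73 ± 0.13), Hoxb6 (-1.42 ± 0.19) and Hoxb4 (-0.71 ± 0.14) were lower by less. For Hoxb4, TMM scaling and edgeR ended the call. Hoxb5 (-0.37 ± 0.14) overlapped, and its call was lost with every other scaling and its sign turned with TMM and edgeR. The antisense transcript Hoxb3os covers 52.9% of the exon bases of Hoxb3 and 27.3% of those of Hoxb2. The kit marks strand, but the strand setting of the counting is not given in the sources used here, so reads of a gene and its antisense partner cannot be told apart.

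The Hoxd genes, at 74691924 to 74765142 on the plus strand of chromosome 2, were lower in mature adipocytes in all 5 cases tested (59.1% of all genes). Hoxd9, a gene of the lumbar spine and limb, was at 3.78, 2.96 and 2.08 CPM in mature adipocytes labelled Kdm5c+/– and 1.69, 2.17 and 2.78 CPM in wild type. Stromal vascular cells gave 18.1, 17.8 and 12.2 CPM under the Kdm5c+/– label and 20.7, 22.0 and 23.0 CPM in wild type. No mature adipocyte library reached the lowest stromal vascular library (log2 difference -2.48 ± 0.14, adjusted p = 4.39e-09). Hoxd8, a gene of the trunk, had 8.97 to 15.4 CPM (median 10.5) in mature adipocytes, against 29.0 to 42.9 CPM (median 38.3) in stromal vascular cells (-1.65 ± 0.11), again without overlap. Hoxd10, which acts in limb and lumbar motor neurons, was near the counting floor in mature adipocytes, with 0 to 0.232 CPM, against 1.52 to 3.71 CPM (median 2.85) in stromal vascular cells. Its log2 difference was -1.72 ± 0.15 on the log2(CPM + 1) scale and -4.47 in edgeR. Hoxd4 (-0.99 ± 0.12) did not overlap, and Hoxd3 (-0.82 ± 0.17) did. The annotation of Hoxd4 shares 52.3% of its exon bases, and that of Hoxd3 62.3%, with the other and the overlapping gene model Gm28230 on the same strand, so their values are uncertain. Hoxd1 had 20 reads in mature adipocyte and 8 in stromal vascular libraries (ratio 2.32, 95% interval 0.977 to 6.08, for counting error only) and was not tested.

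Set by gene number, the level in mature adipocytes as a share of the stromal vascular mean was lower towards the high end of the Hoxd cluster and, past Hoxb5, of the Hoxb cluster, but not of the Hoxa and Hoxc clusters, Hoxc11 apart. The shares compare mature adipocytes with stromal vascular cells. In the Hoxd cluster, it was 49.2% for Hoxd3, 47.3% for Hoxd4, 30.4% for Hoxd8, 13.6% for Hoxd9 and 4.0% for Hoxd10. In the Hoxb cluster, the share was 75.3% for Hoxb5, 33.3% for Hoxb6, 30.3% for Hoxb7, 21.6% for Hoxb8 and 3.97% for Hoxb9, while Hoxb2 and Hoxb3 stood at 26.6% and 19.0%. In the Hoxa cluster, it was 46.8% for Hoxa2, 69.1% for Hoxa3, 114% for Hoxa4, 57.1% for Hoxa5 and 68.4% for Hoxa6. It was 94.5% for Hoxa7, 196% for Hoxa9 and 232% for Hoxa10, so that the rise with gene number was not steady. In the Hoxc cluster, it was 69.0% for Hoxc4 and at least 192% for each of Hoxc5 to Hoxc10, with 647% for Hoxc8. These shares describe neighbouring genes of the same libraries and were not tested as a trend.

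The make-up of the summed Hox level changed with the fraction. Hoxc genes gave 64.5%, 61.8% and 66.6% of the summed Hox CPM per kilobase in mature adipocytes labelled Kdm5c+/– and 65.5%, 68.8% and 67.2% in wild type. They gave 24.95%, 27.3% and 29.1% in stromal vascular cells labelled Kdm5c+/– and 24.8%, 22.2% and 25.1% in wild type. The fractions lay far apart, with no library between them. Hoxb genes gave 9.49% ± 1.35 in mature adipocytes and 32.4% ± 1.37 in stromal vascular cells (SD, n = 6 each). Hoxd genes gave 5.42% ± 1.58 in mature adipocytes and 20.7% ± 1.91 in stromal vascular cells. Hoxa genes gave 19.35% ± 1.49 in mature adipocytes and 21.25% ± 1.65 in stromal vascular cells. The Hoxa share thus overlapped between the fractions, although Hoxa10 and Hoxa2 moved in opposite directions within it.

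**Figure D3:**
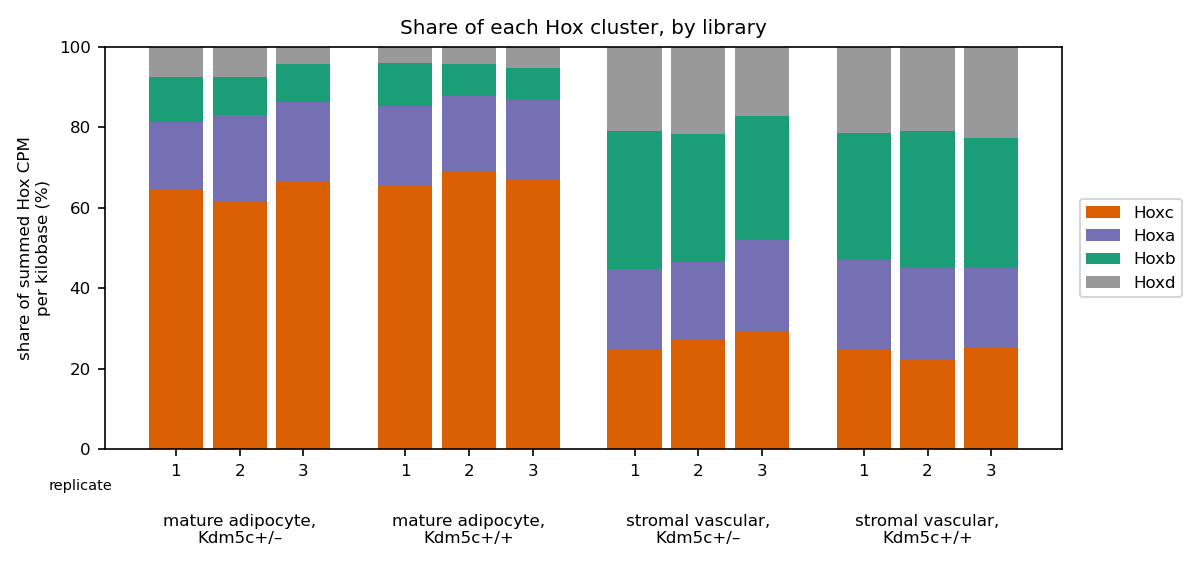
Share of each cluster in the summed Hox CPM per kilobase (y axis, percent) in each of the 12 libraries, grouped by fraction and genotype label. Hoxc takes 61.8% to 68.8% of the sum in mature adipocytes and 22.2% to 29.1% in stromal vascular cells.

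Ratios of paralogs within a library do not depend on the scaling. They are given here in CPM, not divided by length. Hoxc8 stood at 19.5 to 61.6 times Hoxb8 in mature adipocytes and at 0.956 to 1.40 times in stromal vascular cells. Hoxc9 stood at 25.4 to 66.3 times Hoxb9 in mature adipocytes and at 0.823 to 0.996 times in stromal vascular cells. Hoxa9 stood at 5.27 to 15.5 times Hoxd9 in mature adipocytes and at 0.477 to 0.752 times in stromal vascular cells. Hoxa9 has 5580 exon bases and Hoxd9 2136, so length matters for this pair. Per kilobase, Hoxa9 averaged 3.97 and Hoxd9 1.21 in mature adipocytes, and 2.03 and 8.88 in stromal vascular cells. In CPM, the genes of these 3 pairs were thus near equal, or the Hoxd gene was the higher, in stromal vascular cells. The Hoxc or Hoxa gene was far the higher in mature adipocytes. Low-numbered pairs did not separate in this way. Hoxc4 stood at 0.540 to 1.49 times Hoxb4 in mature adipocytes and at 0.528 to 0.867 times in stromal vascular cells.

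No T-box gene was higher in mature adipocytes: of 8 tested, 7 were lower (59.1% of all genes), and their libraries did not overlap between the fractions (51.4%). Of the 7, Tbx5, Tbx18 and Tbx21 passed the filter only through the stromal vascular libraries, where they are high. Tbx2 (chromosome 11, 85832551 to 85841948), a repressor with roles in limb, heart and mammary development, was at 1.72, 1.12 and 1.53 CPM in mature adipocytes labelled Kdm5c+/– and 1.86, 2.41 and 1.55 CPM in wild type. By contrast, stromal vascular cells labelled Kdm5c+/– held 62.9, 41.6 and 52.8 CPM and wild type ones 65.9, 74.0 and 77.9 CPM. The log2 difference was -4.54 ± 0.11 (adjusted p = 8.30e-12), the largest among the members in limma and edgeR. Tbx18 (chromosome 9, 87702800 to 87731260), a gene of pericytes, smooth muscle and the heart's pacemaker, had 0.720 to 1.24 CPM (median 0.812) in mature adipocytes, against 24.9 to 34.6 CPM (median 32.8) in stromal vascular cells (-4.06 ± 0.10). Tbx5, which starts the forelimb and patterns the heart, had 0.157 to 0.785 CPM (median 0.264) in mature adipocytes, against 7.45 to 15.4 CPM (median 9.84) in stromal vascular cells (-3.11 ± 0.14, and -4.55 in edgeR). In mature adipocytes these 3 genes stood at 2.72%, 2.96% and 3.15% of their stromal vascular level. The endothelial and pericyte markers stood at a median of 3.12% and 3.19%, and the part of stromal cells carried over was not tested. Antisense genes cover 20.6% of the exon bases of Tbx18.

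Tbx15 (chromosome 3, 99240381 to 99354259), which patterns the skin and shoulder and marks subcutaneous fat, differed from those genes in being kept in both fractions. It was at 20.95, 19.5 and 21.3 CPM in mature adipocytes labelled Kdm5c+/– and 24.2, 25.8 and 22.4 CPM in wild type. The stromal vascular level was 45.1, 43.0 and 46.9 CPM in pools labelled Kdm5c+/– and 44.5, 37.6 and 45.6 CPM in wild type pools. The mature adipocyte level was thus 51.0% of the stromal vascular level, with no overlap (log2 difference -0.94 ± 0.06, adjusted p = 2.72e-08). Per kilobase Tbx15 was the first T-box gene in mature adipocytes, at 5.96 ± 0.613, and stood after Tbx2 and Tbx3 in stromal vascular cells, at 11.7 ± 0.881. In CPM, not divided by length, Tbx15 stood at 19.5 to 30.5 times Tbx18 in mature adipocytes and 1.10 to 1.73 times in stromal vascular cells.

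The remaining T-box genes are given because the family has few members, and Tbx3, Tbx6, Tbx21 and Tbx1 were added after their values were seen. Tbx3, required for the mammary gland and limb, was at 16.0, 16.5 and 22.8 CPM in mature adipocytes labelled Kdm5c+/– and 23.8, 22.1 and 18.7 CPM in wild type. Stromal vascular cells held 88.1, 139 and 52.6 CPM in Kdm5c+/– pools and 106, 70.0 and 72.0 CPM in wild type pools (-2.03 ± 0.21). Its stromal vascular libraries spread widely, and the highest of them was also the highest in the 12 mammary epithelium markers. Their summed level was 223, 422 and 111 CPM in stromal vascular cells labelled Kdm5c+/– and 184, 167 and 324 CPM in wild type, and their part in Tbx3 was not tested. Tbx21, the T-bet factor of T and natural killer cells, was at 0.477, 1.04 and 0.705 CPM in mature adipocytes labelled Kdm5c+/– and 1.16, 0.578 and 0.386 CPM in wild type. It was at 3.51, 2.01 and 3.04 CPM in stromal vascular cells labelled Kdm5c+/– and 1.83, 3.77 and 2.33 CPM in wild type (-1.11 ± 0.17). The 12 lymphocyte markers summed to 199, 61.0 and 167 CPM in stromal vascular cells labelled Kdm5c+/– and 207, 180.4 and 60.3 CPM in wild type, against 1.04 to 4.59 CPM in mature adipocytes, where 6 of the 12 are at 0 in some library and 0 of the 12 in all 6. Their part in Tbx21 was not tested. Tbx6, a gene of the mesoderm beside the spine, was also lower (-1.48 ± 0.18). Tbx1, a gene of the pharynx and a marker of beige fat precursors, was the T-box gene that did not pass (-0.01 ± 0.17), with 4.11 ± 1.35 CPM in mature adipocytes and 4.08 ± 0.929 CPM in stromal vascular cells, and its sign turned with the other scalings. Tbx4, which starts the hindlimb, had 9 reads in mature adipocyte and 70 in stromal vascular libraries, and Tbx10 had 6 in mature adipocyte and 25 in stromal vascular libraries. Neither was tested.

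**Figure D4:**
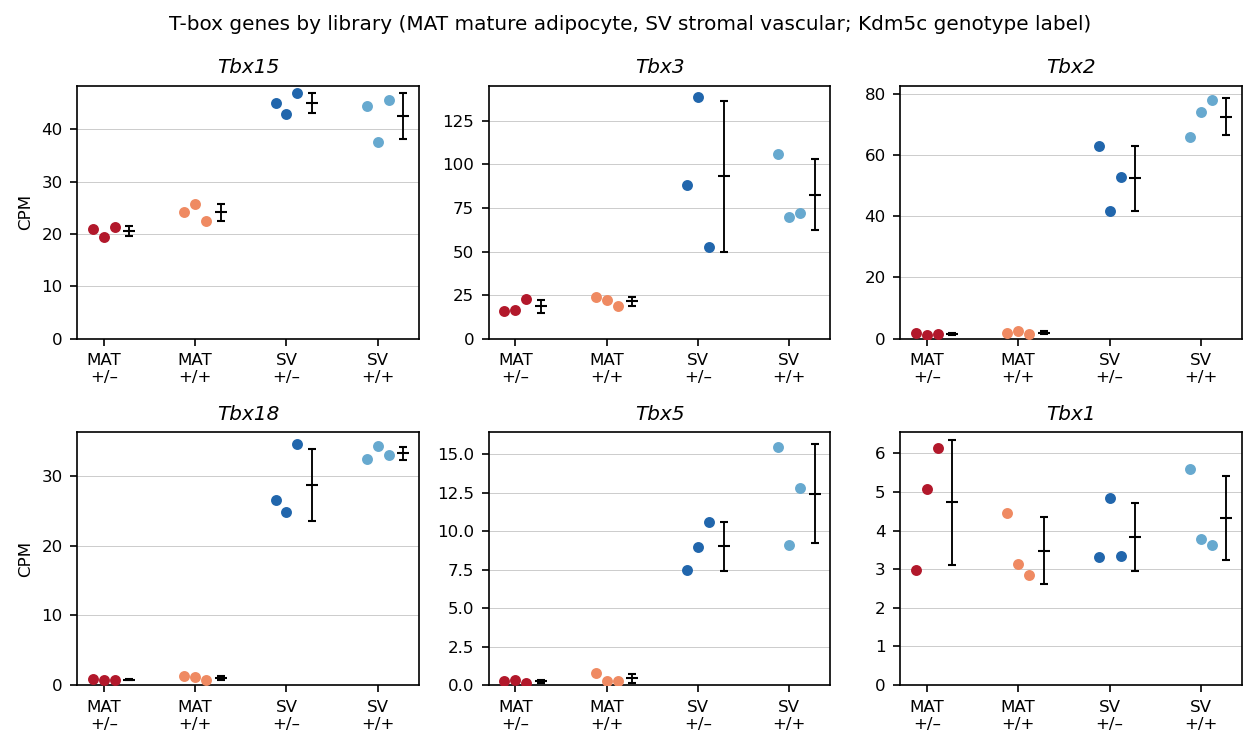
CPM of 6 T-box genes (y axes from 0) in each library, by fraction and genotype label, with 1 point per library and the group mean ± SD beside it (n = 3). Tbx2, Tbx18 and Tbx5 are close to 0 in mature adipocytes, Tbx15 and Tbx3 are lower there but clearly present, and Tbx1 overlaps between the fractions.

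The Hox partners of the TALE class were present in both fractions, with Pbx3 and Pbx4 low in mature adipocytes. Pbx2 was the most abundant partner per kilobase in both, with 12.2 ± 1.05 in mature adipocytes and 16.3 ± 1.04 in stromal vascular cells. It had 40.8 to 50.0 CPM (median 43.9) in mature adipocytes, against 55.3 to 64.0 CPM (median 59.3) in stromal vascular cells (log2 difference -0.41 ± 0.05). The fractions did not overlap, but the difference is close to the median of all genes, and other scalings ended the call and, with TMM and edgeR, turned its sign. Pbx3 (chromosome 2, 34171457 to 34373142) differed by far more. It had 1.68 to 2.90 CPM (median 2.36) in mature adipocytes, against 11.98 to 16.9 CPM (median 15.02) in stromal vascular cells (-2.28 ± 0.11, adjusted p = 1.85e-09). Pbx4 had 2 reads in mature adipocyte and 89 in stromal vascular libraries, a stromal vascular level 48.0 times that in mature adipocytes (95% interval 12.9 to 403, for counting error only).

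The Meis genes went 3 ways. Meis3 was lower, with 10.4 to 14.3 CPM (median 10.9) in mature adipocytes, against 19.6 to 23.8 CPM (median 21.4) in stromal vascular cells (-0.83 ± 0.09). Meis2, a limb and heart gene, was slightly higher, with 26.3 ± 1.53 CPM in mature adipocytes and 21.8 ± 1.96 CPM in stromal vascular cells and overlapping libraries (0.27 ± 0.07). Meis1, a partner of Hoxa9 in blood stem cells, did not pass (-0.17 ± 0.08), and the other scalings call it higher. Of 10 other TALE factors and Pbx partners tested, 10 were lower in mature adipocytes, against 59.1% of all genes, with a median of -1.27. With TMM scaling 8 were lower, against 43.4% of all genes, with a median of -0.85. Tgif1, a repressor of the same class, differed by -4.14 ± 0.15, its paralog Tgif2 by -2.12 ± 0.10, and Pknox1, which competes with Meis proteins for Pbx, by -1.34 ± 0.06.

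Lists of related genes give the setting in which the members moved. Of 24 Polycomb and Trithorax regulators, the proteins that keep Hox clusters off or on, 3 were higher and 19 lower in mature adipocytes, against 28.7% and 59.1% of all genes, with a median of -0.60. With TMM scaling 5 were higher and 11 lower, against 42.9% and 43.4% of all genes, with a median of -0.13, so that the count is near the background there. Phc2 (-1.39 ± 0.07) and Cbx6 (-2.70 ± 0.15), both of the Polycomb complex that compacts chromatin, and Ctcf (-1.05 ± 0.06), which bounds chromatin domains, had the smallest p. Of 22 other transcription factors of body position and limb, 20 were lower (59.1% of all genes) and 2 higher (28.7%), with a median of -1.61. Osr1 (-4.97 ± 0.11), a gene of limb connective tissue, Msx1 (-3.86 ± 0.11) and Meox1 (-4.46 ± 0.15) had the smallest p. Of 11 genes of retinoic acid synthesis, breakdown and receptors, signals that set Hox boundaries in the embryo, 8 were lower (59.1% of all genes) and 3 higher (28.7%), with a median of -1.63. Among them the synthesis enzymes Aldh1a3 (-4.73 ± 0.15) and Aldh1a2 (-2.28 ± 0.15) and the breakdown enzyme Cyp26b1 (-4.83 ± 0.20) were lower. The synthesis enzyme Aldh1a1, named after its values were seen, went the other way without overlap, with 114 to 299 CPM in mature adipocytes, against 27.9 to 64.7 CPM in stromal vascular cells (2.27 ± 0.20). Rdh10 (0.14 ± 0.05) and Dhrs3 (0.25 ± 0.10) were the other 2 that were higher. Of 4 non-coding transcripts of the Hox clusters, Halr1 was tested and was lower (-1.45 ± 0.17). Haglr, named after its values were seen and too low to be tested, went the other way. It was at 0.170 to 0.509 CPM in mature adipocytes and at 0 CPM in every stromal vascular library. Against these medians and the -0.45 of all genes, the median over the tested Hox genes was -0.61.

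Between the genotype labels in mature adipocytes, no member passed. Of 37 members tested with limma, 0 passed, as did 0 of 11913 genes (0%), and edgeR called none. DESeq2 called 1 member, Hoxd3, higher, against 1.05% of all genes in that direction and 2.1% in either. In limma 7 members (18.9%) had an unadjusted p under 0.05, against 14.6% of all genes. The libraries of the labels did not overlap for 3 higher members (Hoxd3, Hoxd4 and Pbx2), against 9.44% of all genes, and for 1 lower member (Tbx15), against 12.6%. Neither count, of 37 members, makes a larger share than that of all genes. The median log2 difference was 0.00 over the members.

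Hoxd3, a gene of the cervical spine, was at 3.45, 4.24 and 2.78 CPM in mature adipocytes labelled Kdm5c+/–, against 1.82, 1.16 and 1.85 CPM in wild type. Its 3 Kdm5c+/– libraries lay above the 3 wild type ones, with a log2 difference of 0.78 ± 0.19 (95% interval 0.34 to 1.23, adjusted p = 0.273 in limma and 0.0374 in DESeq2). The mean is low, at 3.49 ± 0.732 CPM under the Kdm5c+/– label and 1.61 ± 0.394 CPM in wild type (SD, n = 3 each), and many of its reads could belong to Hoxd4. Pbx2 was at 50.0, 47.3 and 45.8 CPM in libraries labelled Kdm5c+/–, against 41.0, 40.8 and 42.0 CPM in wild type (0.20 ± 0.07, adjusted p = 0.300), a small shift without overlap. Hoxa10 was at 12.9, 13.7 and 25.4 CPM in libraries labelled Kdm5c+/–, against 24.8, 25.2 and 30.0 CPM in wild type (-0.65 ± 0.25, adjusted p = 0.321). 2 of its Kdm5c+/– libraries lay low and replicate 3 lay among the wild type ones. The same libraries parted in Hoxc5, at 16.3, 13.0 and 26.4 CPM in those labelled Kdm5c+/–, against 23.8, 26.1 and 27.5 CPM in wild type, and in Hoxb8, at 5.17, 5.00 and 2.59 CPM in those labelled Kdm5c+/–, against 3.02, 1.97 and 2.01 CPM in wild type (both chosen after their values were seen). The 12 endothelial markers moved with the labels too, with a summed level of 239, 139 and 255 CPM in mature adipocytes labelled Kdm5c+/–, against 398, 353 and 314 CPM in wild type, and with none of the 12 at 0 CPM. The 15 mature adipocyte markers summed to 59661, 63323 and 51611 CPM in those labelled Kdm5c+/–, against 45151, 46947 and 46744 CPM in wild type. Some single stromal genes, picked after their values were seen, parted as Hoxa10 and Hoxc5 did, and others of the same lists did not. Col1a1, a fibroblast collagen, was at 309, 262 and 1161 CPM in those labelled Kdm5c+/–, against 721, 1083 and 1028 CPM in wild type. The smooth muscle actin gene Acta2 was at 28.2, 21.8 and 131 CPM in those labelled Kdm5c+/–, against 99.2, 311 and 161 CPM in wild type. In both, replicates 1 and 2 under the Kdm5c+/– label lay lowest and replicate 3 lay among the wild type libraries. By contrast, the pericyte gene Pdgfrb was at 11.2, 6.56 and 14.1 CPM in those labelled Kdm5c+/–, against 17.9, 25.4 and 18.2 CPM in wild type. Cspg4, of the same list, was at 224, 140 and 132 CPM in those labelled Kdm5c+/–, against 138, 67.9 and 125 CPM in wild type. The part of any of these in the members' values was not tested.

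Between the genotype labels in the stromal vascular fraction, no member passed either, but most leaned the same way. Of 42 members tested, 0 passed in limma, edgeR or DESeq2, while 1 of 13792 genes did in limma (0.00725%), 1 in edgeR (0.00725%) and 53 in DESeq2 (0.384%). In limma the estimate was below 0 for 36 members and above 0 for 6, with a median of -0.21, against -0.03 over all genes. The share of all genes below 0 is not given here. With edgeR and DESeq2, the estimates of Meis1, Meis2 and Meis3 came out above 0 instead. In limma 9 members (21.4%) had an unadjusted p under 0.05, all of them lower, against 7.56% of all genes in either direction. Of these, Pbx3, Hoxb5 and Hoxc4 did not have an unadjusted p under 0.05 in edgeR or DESeq2. The 3 libraries labelled Kdm5c+/– lay below the 3 wild type ones for 11 members (26.2%, against 9.74% of all genes) and above them for 0 (3.74%). Among the 11 were Hoxa5, Hoxa9, Hoxb2, Hoxb3, Hoxc4, Hoxc9, Hoxd8, Hoxd9, Pbx3 and Tbx2. Neighbouring genes of a cluster in the same 6 libraries are not independent, and no test of the list was made.

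The 3 members with the smallest p were Hoxb3, Hoxb2 and Hoxd8. Hoxb3 was at 26.2, 24.5 and 27.6 CPM in stromal vascular cells labelled Kdm5c+/–, against 32.2, 37.0 and 32.5 CPM in wild type (-0.36 ± 0.09, adjusted p = 0.617). Hoxb2, a hindbrain gene, was at 16.9, 14.1 and 15.3 CPM in those labelled Kdm5c+/–, against 19.9, 22.2 and 19.6 CPM in wild type (-0.39 ± 0.10, adjusted p = 0.617). Hoxd8 was at 36.3, 31.9 and 29.0 CPM in those labelled Kdm5c+/–, against 40.4, 41.4 and 42.9 CPM in wild type (-0.36 ± 0.09, adjusted p = 0.617). The labels do not overlap for any of the 3, and each misses the threshold by far after adjustment. By cluster, the summed Hoxb level was 46.3, 42.2 and 38.7 CPM per kilobase in stromal vascular cells labelled Kdm5c+/– and 48.6, 54.4 and 48.15 in wild type. The summed Hoxd level was 28.4, 28.8 and 21.4 CPM per kilobase in those labelled Kdm5c+/– and 32.7, 33.3 and 33.8 in wild type. The summed Hoxa level was 26.97, 25.73 and 28.8 CPM per kilobase in those labelled Kdm5c+/– and 34.33, 36.55 and 30 in wild type. None of these 3 sums overlapped between the labels. The Hoxc sum did not part in this way, at 33.8, 36.3 and 36.5 CPM per kilobase in those labelled Kdm5c+/– and 38.1, 35.5 and 37.6 in wild type. The endothelial markers summed to 9685, 7543 and 8173 CPM in stromal vascular cells labelled Kdm5c+/– and 10013, 10114 and 9588 CPM in wild type. The 11 pericyte and smooth muscle markers were also lower under the Kdm5c+/– label. Their sums were 4041, 4015 and 4359 CPM in those labelled Kdm5c+/– and 4394, 5475 and 5489 CPM in wild type, which do not overlap. They did not follow the Hox sums library by library. Within the Kdm5c+/– label, replicate 3 had the highest sum of these markers, the lowest Hoxb and Hoxd sums and the highest Hoxa and Hoxc sums. Of these 11 markers, 4 had an unadjusted p under 0.05 and 0 passed in limma, with a median log2 difference of -0.33. The macrophage markers summed to 2357, 3587 and 3117 CPM in those labelled Kdm5c+/– and 2355, 2412 and 2482 CPM in wild type. The part of such cell make-up in the Hox values was not tested.

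**Figure D5:**
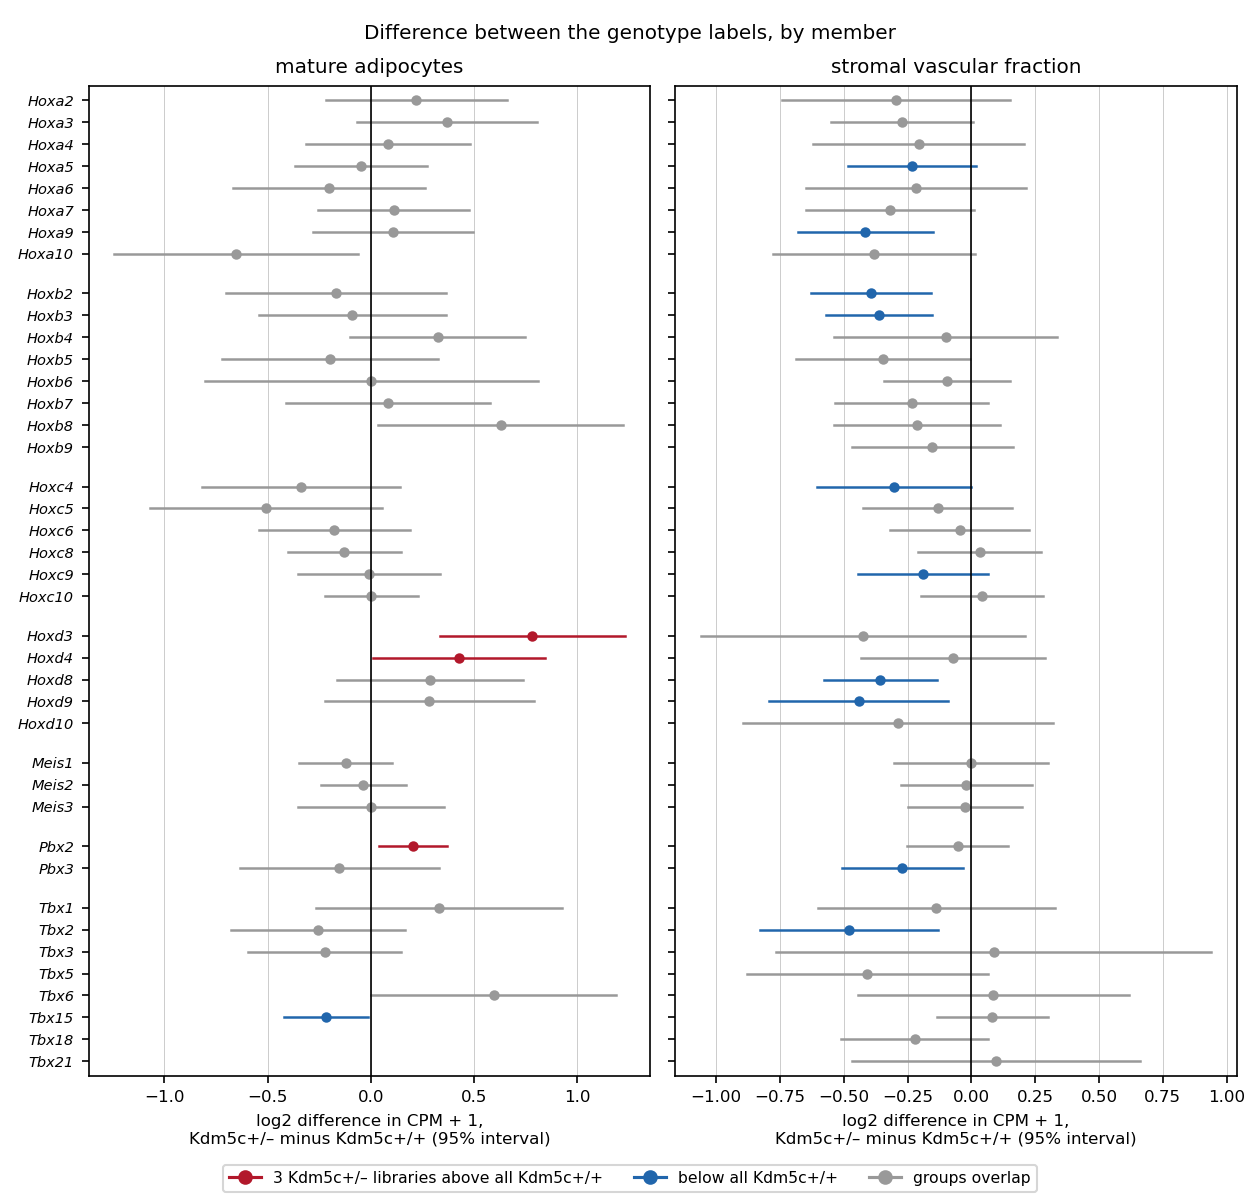
Log2 difference in CPM + 1 (libraries labelled Kdm5c+/– minus Kdm5c+/+, x axes of different width) for 35 of 37 tested members in mature adipocytes (left) and 40 of 42 in the stromal vascular fraction (right), with the limma estimate and its 95% interval. Colour marks members whose 3 libraries labelled Kdm5c+/– all lie above (3 at left, 0 at right) or below (1 at left, 10 at right) the wild type libraries, and no member passed the adjusted threshold.

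Whether the genotype difference was unlike in the fractions was tested directly, as the difference in mature adipocytes minus that in stromal vascular cells. None of 42 members passed in limma, edgeR or DESeq2. Over 14193 genes limma and edgeR called 0 (0%) and DESeq2 called 67 (0.472%). In limma 8 members (19.0%) had an unadjusted p under 0.05, against 8.93% of all genes. Hoxd3 had the smallest p (1.21 ± 0.35, adjusted p = 0.504). In stromal vascular cells Hoxd3 was at 3.83, 6.82 and 2.63 CPM in libraries labelled Kdm5c+/–, against 6.75, 5.70 and 5.38 CPM in wild type, where the labels overlap. Hoxd8 (0.64 ± 0.22) and Hoxa3 (0.64 ± 0.23) followed, with adjusted p = 0.509 for each. Hoxd8 was at 15.4, 12.7 and 9.36 CPM in mature adipocytes labelled Kdm5c+/–, against 8.97, 9.21 and 11.7 CPM in wild type, so that the labels overlap there. Hoxa3, a gene of the neck, was at 9.47, 14.5 and 12.5 CPM in mature adipocytes labelled Kdm5c+/–, against 8.47, 11.1 and 7.88 CPM in wild type, and at 12.7, 14.9 and 13.8 CPM in stromal vascular cells labelled Kdm5c+/–, against 17.3, 19.0 and 14.6 CPM in wild type. Its labels overlap in both fractions. A difference between the fractions in the response of these genes was thus not detectable with 3 pools a group.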

How the data were processed

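RNA was sequenced from 12 libraries, each a pool of 2 mice, in 4 groups of 3. Libraries were made strand-specific with a NuGEN kit, per the labels' protocols. STAR 2.7.2a, edgeR 3.26.8 and the build GRCm38 are named in the submitters' processing notes, which leave the counting tool, its annotation and its strand setting unstated. CPM were deposited, made by the authors by scaling counts to 1000000 per library over the genes listed. In each library 100% of them were whole multiples of one step within 0.05 read, which gives back the whole reads, 21836878 to 29434125 in a library. Intervals and floors cover counting error only.

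Members were matched by symbol, and 23 symbols turned into dates by a spreadsheet were not used. The members and gene lists were chosen with earlier results of these data known. GENCODE mouse release 21 gave positions and merged exon lengths. Tests used limma 3.58.1 (R 4.3.3; trend and robust) on log2(CPM + 1), for genes that reached 1 CPM in 3 or more of the libraries fitted, two-sided, with Benjamini-Hochberg adjustment over all genes tested and a threshold of 0.05. The fractions and the difference of differences used the 12 libraries and the genotype labels the 6 of a fraction. A difference on this scale understates that of low genes. The test was checked on simulated data. On the recovered reads, edgeR 4.0.16 (quasi-likelihood) called 6065 genes higher and 6154 lower of 14193 between the fractions, 0 and 1 between the labels in mature adipocytes and stromal vascular cells, and 0 for the difference. DESeq2 1.42.0 was a further alternative. Alternatives also covered the pseudocount, the filter, the scaling, each library left out and a replicate block.

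Full values were given for members past the threshold between genotypes, for the 3 with the smallest p where fewer passed, and per family for the highest per kilobase in each fraction and up to 3 per direction with the largest difference without overlap. Lists name up to 3 members by p. A few genes that the rule names are not reported here. The fractions of one pool deviated together (correlations of 0.169 to 0.278 in the 6 pools) and are taken as pairs, from the data. Among the tests, only the replicate block uses these pairs, and only for the fractions and the difference of differences. Between the genotype labels the block groups libraries by replicate number alone, which joins different pools. The estimates and p-values in the Results do not use the pairs. Other steps ran in Python 3.11.15 with numpy 2.4.6, pandas 2.3.3, scipy 1.17.1 and matplotlib 3.10.9.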

Additional observations from a re-analysis of the deposited data

How the results depend on the processing

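Between the fractions, 8 to 12 members were called higher and 22 to 33 lower over the alternatives that keep the 12 libraries. Leaving out each library in turn gave 8 to 9 higher and 28 to 30 lower, and 0 in either direction between the genotype labels and for the difference of differences. With 1 CPM required in 3 libraries of each fraction, a filter chosen after seeing the data, 9 were higher and 24 lower. Members near 0 turned sign with the scaling. Under median-of-ratios scaling, TMM scaling, edgeR and DESeq2, Hoxa7 came to 0.30, 0.38, 0.41 and 0.33, Meis1 to 0.20, 0.28, 0.29 and 0.21, and Tbx1 to 0.30, 0.37, 0.47 and 0.39. Hoxb5 came to 0.05 and 0.08, and Pbx2 to 0.06 and 0.05, under TMM scaling and edgeR. These scalings raise the median of all genes by 0.36 to 0.44. Tbx1 ranged from -0.10 to 0.11 with 1 library left out and turned sign without MAT_HET replicate 1 (0.11), MAT_WT replicates 2 (0.01) and 3 (0.04), SV_HET replicate 2 (0.06) and SV_WT replicate 1 (0.07), where MAT is mature adipocyte, SV stromal vascular and HET Kdm5c+/–. DESeq2 called 1 member, Hoxd3, higher between the labels in mature adipocytes, where limma and edgeR called 0; the cause was not tested. With the replicate block, the fractions gave 9 higher and 29 lower, and 0 members were called for the difference. Between the labels, where the block was the replicate number alone, 0 members were called. The numbers do not pair the labels: same-numbered libraries correlated at -0.026 to 0.341 in mature adipocytes and -0.281 to 0.184 in stromal vascular cells. With the longest transcript as length, Hoxc genes gave 66.0% of the Hox sum in mature adipocytes and 26.7% in stromal vascular cells. Depth limits Hoxa11, Hoxc11, Hoxd1, Pbx4, Tbx4 and Tbx10, which were not tested.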
